A study of Bos taurus with 10 samples.

Results

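The genes described here carry the names of human major histocompatibility complex (MHC) genes, CD surface molecules, interleukin receptors, chemokines and chemokine receptors, together with B2M and LCK. A gene was a member if a probe set with values carried a single human symbol of one of these families (CD9 was left out) or the symbol B2M, PTPRC, LCK or TAP1. Of 172 such genes on the array, 86 had a value and 86 were blank on every array. They stand among 6732 genes with a value. The blank genes included PTPRC, the CD45 phosphatase of all leukocytes, TAP1, a transporter that brings peptides to class I molecules, and CD74, CD3E, CD79A and CD14, so these lineage markers were not analysed here. Each member was represented by its brightest probe set, since 22 members had more than 1.

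Embryos from in vitro fertilization of cattle, each array labelled as a pool of embryo total RNA, filled 3 arrays and were set against 7 arrays of adult bovine tissue: spleen, lung, liver, kidney, heart, muscle and brain, with 1 array each. The labels give no strain, animal age, embryo stage or treatment, and they leave unsaid if 1 pool or several were hybridised, so the p-values measure only the spread between these arrays. Bovine RNA was hybridised to human probes. A dim probe set therefore cannot be told apart from a poor match between the human probe and the bovine transcript. Levels were compared between arrays for 1 probe set, never between genes, apart from a sum over 1 list near the end. None of the 17 HLA symbols was found in the bovine RefSeq gene table, against 66 of the other 69 member symbols, so the HLA names say which human sequence the probes were designed on and not which bovine gene was measured.

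MHC class I molecules, paired with beta-2 microglobulin (B2M), sit on nearly all nucleated cells and show peptides made inside the cell to cytotoxic T cells. Class II molecules are kept mainly to B cells, dendritic cells and macrophages and show peptides from engulfed material to helper T cells. Spleen and lung are rich in such cells, liver holds its own macrophages, neurons carry little class I, and early embryos of several mammals are known for low class I expression.

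Values are intensities after quantile normalisation, which gives all arrays 1 common distribution with a median of 146. Differences are on the scale of log2(intensity + 72.2), where 72.2 is the 25th percentile, so a difference understates the change of a dim gene. Calls use limma with Benjamini-Hochberg adjustment at 0.05 over the 6775 probe sets that exceeded the array median on at least 3 of 10 arrays. The representative probe sets of 56 members passed this filter and 30 did not. Of the 56, 12 exceeded the median on tissue arrays only, namely HLA-B, HLA-C, HLA-F, HLA-G, HLA-J, HLA-DRB1, HLA-DRB4, HLA-DRB6, CD5L, CD8B, CXCL5 and IL5RA. CCL17 and IL12RB1 did so on embryo arrays only. Each of these passed through the side where it is high, so its direction was tied to its passing, and 42 members exceeded the median on both sides. Median intensities as deposited ran from 99.2 to 221 between arrays, and the embryo arrays correlated with each other at 0.87 to 0.955 over all probe sets (Pearson, on the log2 scale). Marker genes of the labelled tissue were brightest on that tissue's array for 7 of 7 liver, 6 of 7 muscle, 4 of 4 kidney, 4 of 5 heart, 4 of 7 brain and 3 of 5 lung markers. Spleen had no list of its own. Of the related lists below, 5 of 7 T cell signalling genes and 0 of 7 B cell identity genes were brightest in spleen, against 13.7% of all genes. The ratio of 5′ to 3′ GAPDH probe sets was 0.461 to 0.488 on the embryo arrays and 0.287 (brain) to 0.471 (spleen) on the tissue arrays. For ACTB that ratio was 0.566 to 0.728 on the embryo arrays, against 2.65 in heart, 1.52 in muscle, 0.311 in lung and 0.611 to 0.838 in the other tissues.

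Of the 11 class I and related genes, 10 had a lower mean in embryos than in tissues, against 3636 of all 6732 genes. Among the tissues, 8 were brightest in spleen and 5 were lowest in brain. Over all genes above the array median in a tissue, 13.7% were brightest in spleen and 16.8% lowest in brain. HLA-C, a classical class I heavy chain in human, had 2.33, 1.95 and 2.38 on the embryo arrays, against 4762 in spleen, 1382 in lung, 342 in liver, 201 in kidney, 162 in muscle, 148 in heart and 2.02 in brain. Brain lay among the embryo arrays, and every other tissue was far above them. HLA-B, another classical heavy chain, had 3.48, 2.72 and 2.52 on the embryo arrays, against 1798 in spleen, 635 in lung, 372 in liver, 113 in kidney, 84.5 in heart, 43.9 in muscle and 1.47 in brain. The order of the tissues was nearly that of HLA-C, and brain was again the only tissue as low as the embryos. Probe sets of this family can hybridise with each other's transcripts: 16 of the 22 class I probe sets carry the suffix by which the manufacturer marks probes shared between genes, so HLA-B, HLA-C, HLA-F and HLA-G are not independent measurements.

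B2M, the light chain of all class I molecules, had 242, 212 and 210.3 on the embryo arrays, against 667 in spleen, 591 in lung, 561 in heart, 523 in liver, 515 in kidney, 406 in muscle and 218 in brain. The embryos and brain formed the low end, and the other tissues lay between 406 and 667. HLA-F, a non-classical class I gene, had 63.2, 67.2 and 35.01 on the embryo arrays, against 612 in spleen, 367 in lung, 247 in kidney, 189.6 in muscle, 179 in heart, 178 in liver and 49.1 in brain. HLA-G, known in human for its expression in trophoblast, had 109, 79.2 and 92.3 on the embryo arrays, against 939 in spleen, 619 in lung, 315 in liver, 153 in kidney, 124 in heart, 112 in muscle and 48.2 in brain. The embryos were below 6 of 7 tissues, with only brain lower. HLA-J, a pseudogene in human, had 42.9, 16.7 and 36.1 on the embryo arrays, against 480 in spleen, 222 in liver, 218 in lung, 113 in brain, 96.7 in heart, 73.7 in kidney and 40.8 in muscle, so here brain was not among the lowest.

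**Figure D1:**
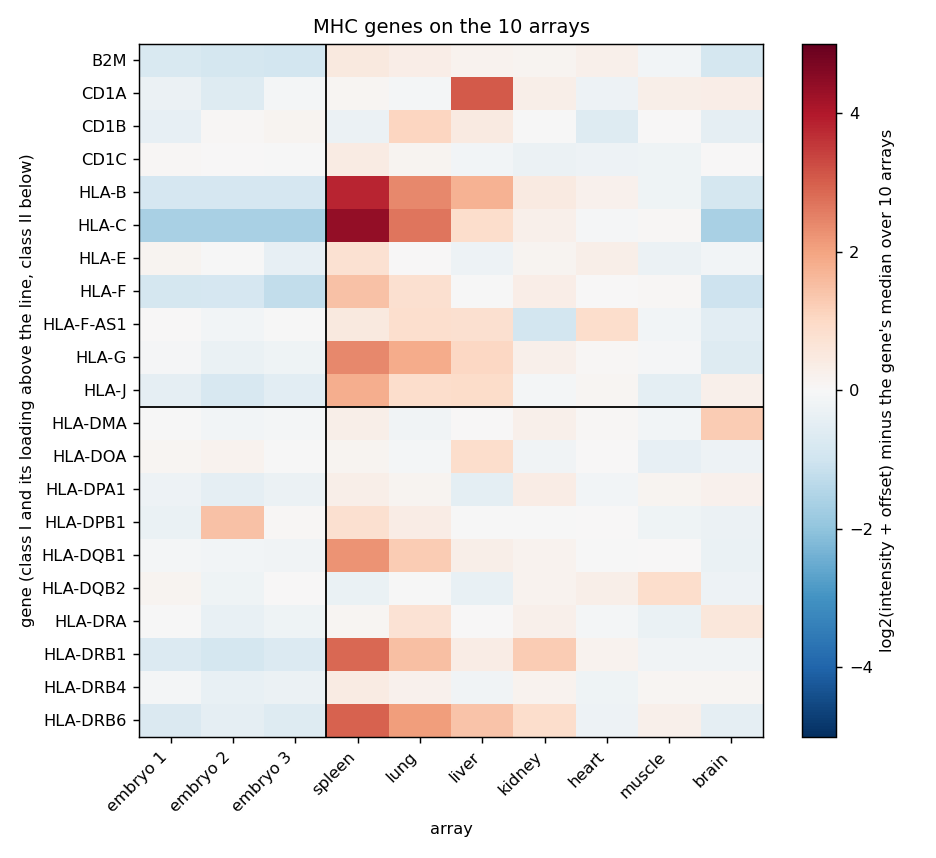
Class I, class II and loading genes (rows) on the 10 arrays (columns), coloured by log2(normalised intensity + offset) minus the gene's median over the arrays. The spleen and lung columns are the warmest in the HLA-B, HLA-C, HLA-G, HLA-DRB1 and HLA-DRB6 rows, and the embryo and brain columns are the coolest in the HLA-B, HLA-C and B2M rows, with HLA-C at 4762 in spleen against 1.95 to 2.38 in embryos.

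Against all 7 tissues together, no class I gene passed the test. The difference, embryos minus tissues, was -2.55 ± 0.99 for HLA-C (limma adjusted p = 0.118), -1.91 ± 0.82 for HLA-B (limma adjusted p = 0.154), -1.22 ± 0.41 for HLA-F (limma adjusted p = 0.0746) and -0.90 ± 0.27 for B2M (log2, SE, limma adjusted p = 0.0514, n = 3 embryo and 7 tissue arrays). Without the brain array, B2M (limma adjusted p = 0.00649), HLA-F (limma adjusted p = 0.0143) and HLA-C (limma adjusted p = 0.0494) were called lower in embryos. Over the 19 alternatives run, B2M was called in 2, HLA-F in 1 and HLA-C in 1. HLA-F and HLA-C passed the filter through tissue arrays only.

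Against spleen alone, 6 of the 10 class I members tested were lower in embryos (against 9.3% of all probe sets tested), and against lung 8 of 10 (against 11.2%). Of these, HLA-B, HLA-C, HLA-F, HLA-G and HLA-J passed the filter through tissue arrays only. Among the 5 class I members above the median on both sides, 1 (B2M) was lower than in spleen, against 4.11% of all such probe sets. Against lung, 3 of the 5 (B2M, CD1B and HLA-F-AS1) were lower, against 4.62%. HLA-E and CD1C were called in neither comparison. HLA-C differed by -6.02 ± 0.17 against spleen (limma adjusted p = 0.000715) and by -4.29 ± 0.17 against lung (limma adjusted p = 0.00105). HLA-B differed by -4.64 ± 0.17 against spleen (limma adjusted p = 0.0013), and B2M by -1.33 ± 0.18 (limma adjusted p = 0.00745). HLA-F, HLA-G and HLA-J were also lower in embryos than in spleen and than in lung. Spleen and lung are 1 array each, so a probe set's residual spread is that among the embryo arrays, with 2 degrees of freedom. The limma fit moderates this spread towards that of all probe sets tested, so the p-values rest on both. A tissue array is assumed to vary as much as the embryo arrays. The comparisons share the embryo arrays.

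Not every class I probe set followed this order. HLA-E, which presents leader peptides of other class I molecules to natural killer cells, had 329, 287 and 204 on the embryo arrays, against 551 in spleen and 225 to 375 in the other tissues, so the groups overlapped. The antisense RNA HLA-F-AS1 had 247, 212 and 239 on the embryo arrays, against 503 in heart, 488 in lung, 484 in liver, 365 in spleen and 92.7 to 212 in kidney, brain and muscle. The remaining 2 probe sets of HLA-B did not share the spleen maximum: they had 8.23 to 13.9 on the embryo arrays, against 41.6 and 115 in spleen and 149 and 159.7 in liver, their brightest tissue. All 3 further probe sets of HLA-C were brightest in spleen, with 345 to 836.

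The CD1 proteins, which present lipids instead of peptides and also pair with B2M, each had their own tissue. CD1A had 19.5, 0 and 33.6 on the embryo arrays, against 866 in liver and 22.5 to 68.2 in the other tissues. CD1B had 139.7, 222 and 241 on the embryo arrays, against 522 in lung, 311 in liver and 108 to 212 in the other tissues, and it was lower in embryos than in lung (-1.14 ± 0.27, limma adjusted p = 0.0354). CD1C had 240.4, 231 and 224 on the embryo arrays, against 173 to 321 in tissues, with no separation.

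Among the class II genes, HLA-DRB1, HLA-DRB6 and HLA-DQB1 were brightest in spleen and next in lung. HLA-DRB4 had the same order, with 199 in spleen and 165 in lung. Of the 9 class II genes above the array median in a tissue, spleen and lung were the 2 brightest tissues for 4. Over all such genes, the share was 10.1%. HLA-DRB1, the beta chain of the DR molecule, had 18.2, 6.64 and 18.1 on the embryo arrays, against 983 in spleen, 337 in lung, 275 in kidney, 115 in liver, 90.2 in heart, 57.9 in muscle and 56.1 in brain. HLA-DRB6, a DR beta pseudogene in human, had 35.7, 57.7 and 41.7 on the embryo arrays, against 1278 in spleen, 680.1 in lung, 407 in liver, 256 in kidney, 137 in muscle, 77.6 in heart and 58.9 in brain. For both, all 3 embryo arrays were below all 7 tissues. HLA-DQB1, the beta chain of DQ, had 28.6, 26.1 and 24.5 on the embryo arrays, against 445 in spleen, 188 in lung, 61.8 in liver, 51.6 in kidney, 36.7 in muscle, 35.9 in heart and 14.1 in brain, and it exceeded the median on too few arrays to be tested.

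HLA-DRB1 differed by -1.58 ± 0.57 from the tissues together (limma adjusted p = 0.0961), by -3.61 ± 0.19 from spleen (limma adjusted p = 0.0013) and by -2.25 ± 0.19 from lung (limma adjusted p = 0.00196). HLA-DRB6 differed by -1.59 ± 0.63 from the tissues together (limma adjusted p = 0.126), by -3.53 ± 0.20 from spleen (limma adjusted p = 0.0013) and by -2.69 ± 0.20 from lung (limma adjusted p = 0.00157). These were the class II members called, 2 of 6 tested, where 9.3% of all probe sets were lower than in spleen and 11.2% lower than in lung. Both passed the filter through tissue arrays only. Of the 3 class II members above the median on both sides 0 were called by limma. Of all such probe sets, 4.11% were lower than in spleen and 4.62% lower than in lung. The class II members tested and not called differed from spleen by -0.66 (HLA-DRB4), -0.61 (HLA-DPA1), -0.06 (HLA-DOA) and 0.34 (HLA-DQB2).

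For HLA-DRA, the DR alpha chain, the choice of probe set decided the picture. Its brightest probe set had 84.1, 51.1 and 62.7 on the embryo arrays, against 187 in lung, 162 in brain, 115 in kidney and 51.8 to 96.7 in the other tissues. Its second probe set had 0.375, 0.5 and 1.14 on the embryo arrays, against 660 in spleen, 208 in lung, 15.7 in liver and 0.98 to 11.5 in the other tissues, with spleen and lung at the top as for HLA-DRB1.

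HLA-DMA, which helps load class II molecules, had 37.2, 29.1 and 32.1 on the embryo arrays, against 196 in brain and 27.2 to 63.9 in the other tissues. HLA-DOA, a modulator of HLA-DM, had 145.5, 159 and 126 on the embryo arrays, against 302 in liver and 82.2 to 152 in the other tissues. Cattle are known to lack DP genes, yet the HLA-DPA1 probe set had 293, 248 and 284 on the embryo arrays, against 242 to 488 in tissues. HLA-DPB1 had 2.71, 186 and 25.4 on the embryo arrays, against 4.47 to 89.8 in tissues, so its spread among the embryos exceeded that among the tissues.

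Over the 9 classes, the median difference, embryos minus tissues, was lowest for class I, next for chemokine receptors and then for class II. It was -0.90 over 11 class I genes, of which 10 had a lower mean in embryos, -0.42 over 6 chemokine receptors, of which 5 had, and -0.36 over 10 class II genes, of which 8 had. It was -0.14 over all 86 members, of which 52 had a lower mean in embryos, and -0.05 over all 6732 genes, of which 3636 had. Against brain alone the class I median was 0.03. With values as deposited, the class I median was -0.73, that of chemokine receptors -0.27 and the class II median -0.24, while that of all genes moved to 0.12, so all 3 kept their sign.

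The medians of the other classes were 0.15 for 16 interleukin receptors, 0.07 for 8 myeloid and broad leukocyte molecules, 0.02 for 5 B cell molecules, -0.01 for 7 T and NK cell molecules, -0.04 for 11 CD molecules of many cell types and -0.22 for 12 chemokines. With values as deposited, the T and NK median was 0.14 and that of the CD molecules of many cell types 0.16. With a common median in place of quantile normalisation, the B cell median was -0.04.

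**Figure D2:**
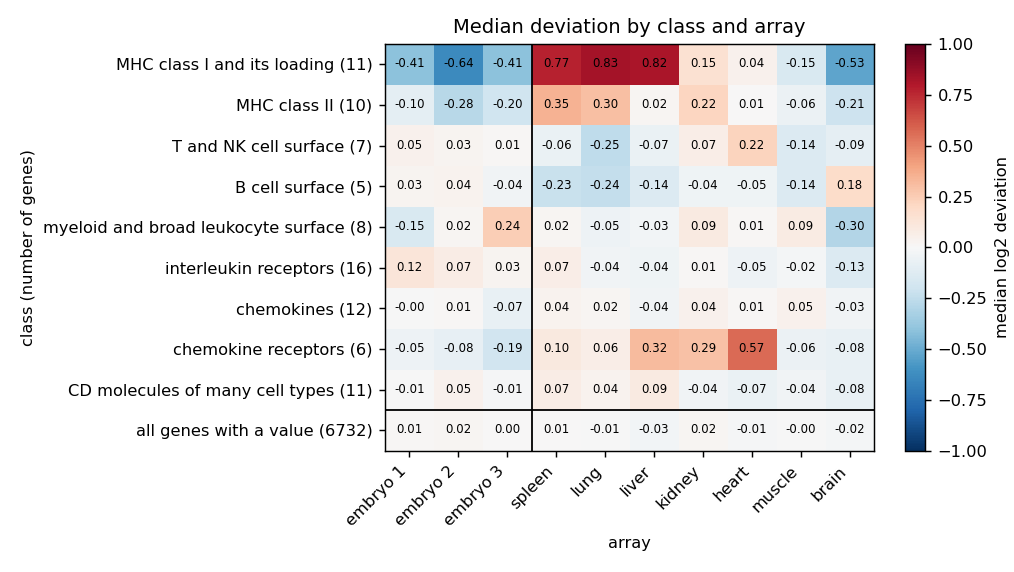
Median deviation of each class of members (rows) on each array (columns), on the log2(normalised intensity + offset) scale, from the genes' own medians over the 10 arrays. MHC class I stood at -0.41, -0.64 and -0.41 on the embryo arrays, against 0.77 in spleen, 0.83 in lung, 0.82 in liver and -0.53 in brain.

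**Figure D3:**
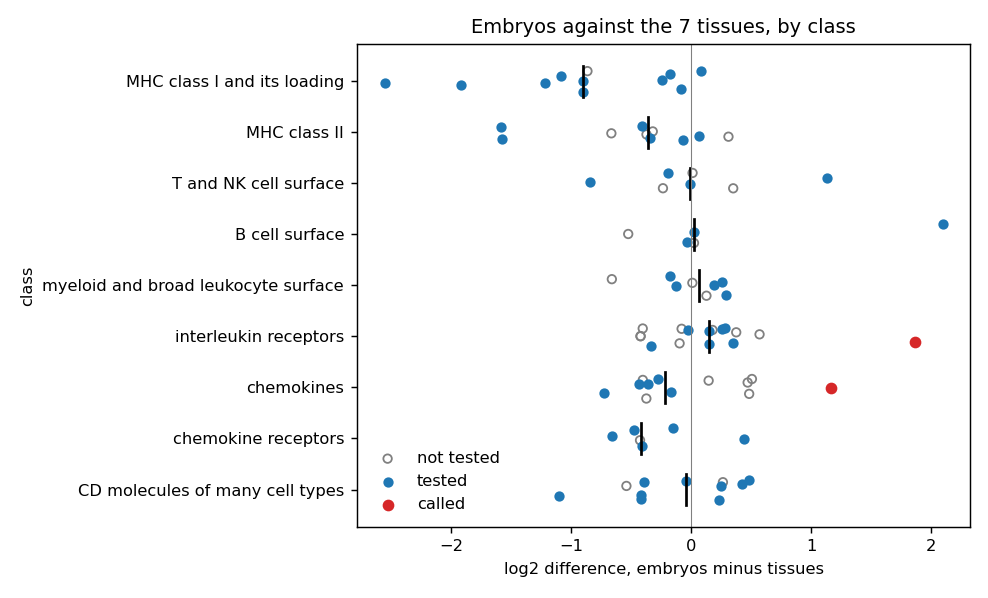
Difference, embryos minus tissues, of each of the 86 members on the log2(normalised intensity + offset) scale, by class, with called members marked. HLA-C, at -2.55, is the lowest point, and CD24, at 2.10, the highest, but neither was called.

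In the comparison with all tissues, 2 of the 56 members tested (3.57%) were called higher in embryos, against 8.87% of all probe sets tested and 7.91% of genes with 1 probe set each, and 0 were called lower, against 3.22%. At an unadjusted limma p under 0.05, 4 members were higher and 10 (17.9%) lower, against 17.4% and 10.2% of all probe sets. Both called members owed their place among those tested to the embryo arrays.

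IL12RB1, a receptor subunit shared by IL12 and IL23, had 269, 228 and 211 on the embryo arrays, against 55.7 in heart, 17.7 in muscle and 2.49 to 5.10 in the other tissues. All embryo arrays were above every tissue, and the difference was 1.87 ± 0.27 (limma adjusted p = 0.000936), past the threshold in all 19 alternatives run. CCL17, a chemokine that draws T cells bearing CCR4, had 193, 192 and 189 on the embryo arrays, against 63.6 in brain, 57.4 in spleen, 56.2 in kidney, 54.0 in lung, 43.0 in liver, 27.2 in muscle and 21.1 in heart. The embryo arrays were nearly equal to each other and above all tissues, with a difference of 1.17 ± 0.22 (limma adjusted p = 0.00555), which was lost when the embryo arrays were averaged into 1 sample (limma adjusted p = 0.184).

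CD24, a small glycoprotein of B cell precursors that epithelia and neurons carry too, had 724, 705 and 509 on the embryo arrays, against 764 in kidney, 200.3 in brain, 124 in lung, 94.0 in spleen, 10.4 in liver, 3.63 in heart and 3.33 in muscle. Only kidney was as bright as the embryos. The difference from the tissues together was 2.10 ± 0.64 (limma adjusted p = 0.0536), and without kidney it was 2.49 ± 0.42 (limma adjusted p = 0.00438). Of the 19 alternatives run, that without kidney was 1 of 3 in which CD24 was called. CD24 was called higher in embryos than in spleen (2.10 ± 0.25, limma adjusted p = 0.00504) and than in lung (1.86 ± 0.25, limma adjusted p = 0.00626). Its other 3 probe sets differed from the tissues by 1.46, 1.42 and 0.69.

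CD151, a tetraspanin, had 254, 271 and 251 on the embryo arrays, against 165 to 243 in tissues, and IL11RA, a receptor of the IL6 family, had 85.5, 120.0 and 178 on the embryo arrays, against 41.8 to 79.1 in tissues. With CCL17 and IL12RB1 these were the 4 members (4.65%) whose embryo arrays all exceeded every tissue, against 8.69% of all genes. The 4 members below every tissue (4.65%, against 5.66% of all genes) were HLA-DRB1, HLA-DRB6, CXCR5 and CCL22. CXCR5, which guides B cells into follicles, had 222, 252 and 234 on the embryo arrays, against 318 to 583 in tissues (-0.66 ± 0.21, limma adjusted p = 0.0582, and 0.0479 without brain). CCL22, a CCR4 ligand, had 122, 147 and 115 on the embryo arrays, against 154 to 301 in tissues. CD70, a ligand of the T cell costimulator CD27, had 587, 387 and 230.2 on the embryo arrays, against 10.01 in heart, 19.9 in muscle and 94.3 to 304 in the other tissues, so the groups overlapped.

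**Figure D4:**
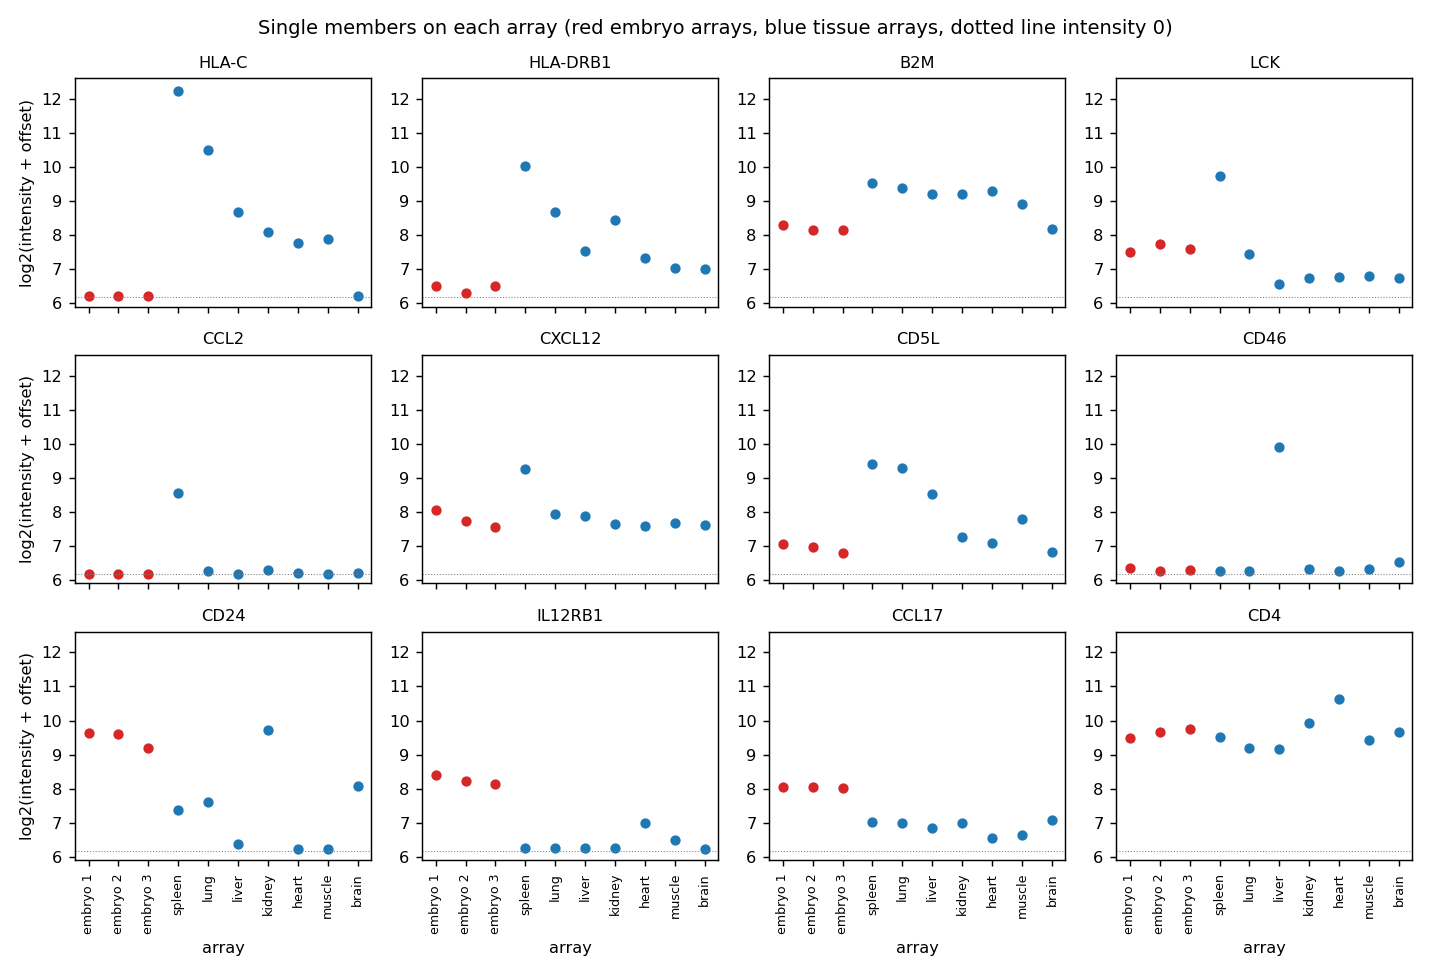
Single members on each array, on the log2(normalised intensity + offset) scale, with the embryo arrays at the left and the 7 tissues after them. In normalised intensity, IL12RB1 stood at 211 to 269 in embryos, against at most 55.7 in tissues, whereas LCK stood at 778 in spleen.

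Against spleen, 13 of 56 members (23.2%) were called lower in embryos, against 9.3% of all probe sets tested, and 3 (5.36%) higher, against 8.55%. Against lung, 15 members (26.8%) were called lower, against 11.2%, and 3 higher, against 11.9%. Of the members called lower, 8 against spleen and 10 against lung had passed the filter through tissue arrays only. Among the 42 members above the median on both sides, 5 (11.9%) were lower than in spleen, against 4.11% of all probe sets of that kind, and 5 (11.9%) lower than in lung, against 4.62%. The higher members were CCL17, CD24 and IL12RB1, and the comparisons share the embryo arrays. Without the second embryo array, the members called lower numbered 8 against spleen and 7 against lung, and with values as deposited 8 were called lower against lung.

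Outside the MHC, the members lower in embryos than in spleen were CD5L, CXCL12, CD47, CXCR5 and CD63. CD5L, a protein secreted by macrophages, had 59.9, 52.6 and 37.9 on the embryo arrays, against 606 in spleen, 560 in lung, 299 in liver, 150.3 in muscle, 80.1 in kidney, 64.7 in heart and 40.9 in brain. It differed by -2.48 ± 0.19 from spleen (limma adjusted p = 0.00169) and by -2.37 ± 0.19 from lung (limma adjusted p = 0.00187). CXCL12, a chemokine of stromal cells, had 194, 139.6 and 117 on the embryo arrays, against 543 in spleen and 121 to 175 in the other tissues. It was lower in embryos than in spleen (-1.48 ± 0.24, limma adjusted p = 0.0141). Its second probe set was also bright in spleen (229), but brightest in kidney (247).

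CD47, which restrains engulfment by macrophages, had 198, 165 and 157 on the embryo arrays, against 442 in spleen, 369 in lung, 302 in kidney and 130.3 to 283 in the other tissues. CD63, a tetraspanin of late endosomes, had 287, 287 and 255 on the embryo arrays, against 542 in spleen, 477 in lung and 240.5 to 395 in the other tissues. CCR9, IL5RA and CD8B passed the test against lung and not against spleen, and whether the differences were unequal was not tested. CD8B, the beta chain of the cytotoxic T cell coreceptor, had 12.1, 47.6 and 81.2 on the embryo arrays, against 242 in lung, 226 in heart, 218 in muscle and 52.8 to 104 in the other tissues, whereas its second probe set had 136 to 169 on the embryo arrays, against 67.3 to 132 in tissues.

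Among the tissues, spleen was the brightest for 24 of the 79 members that exceeded the median in a tissue (30.4%, against 13.7% of all genes), with 8 of them in class I and 4 in class II. Lung was brightest for 8 (10.1%, against 10.8%), liver for 13 (16.5%, against 16.4%), kidney for 7 (8.86%, against 12.8%), heart for 11 (13.9%, against 13.6%), muscle for 10 (12.7%, against 17.3%) and brain for 6 (7.59%, against 15.5%). Spleen and lung were the 2 brightest tissues for 20 members (25.3%, against 10.1% of all genes). With 1 array per tissue these counts have no test.

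**Figure D5:**
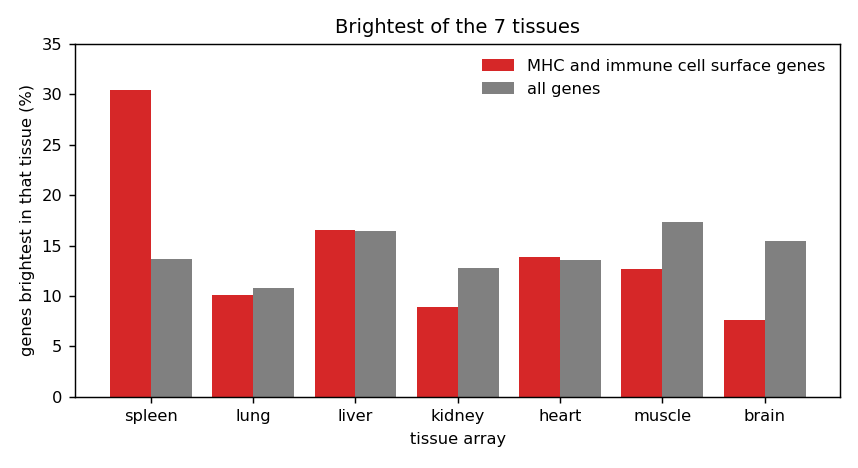
Share of genes (percent) whose brightest tissue is each of the 7 tissues, for the 79 members and for all 6337 genes above the array median in a tissue. Spleen holds 30.4% of the members and 13.7% of all genes, and brain 7.59% of the members and 15.5% of all genes.

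At least 2-fold above the median of the other tissues stood 14 members in spleen (17.7%, against 6.12% of all genes), 11 in lung (13.9%, against 7.26%), 11 in liver (13.9%, against 10.1%), 6 in muscle (7.59%, against 9.64%), 5 in brain (6.33%, against 9.39%), 3 in kidney (3.8%, against 5.52%) and 2 in heart (2.53%, against 8.14%). Set against every other array type, embryos included, 6 of 86 members were at least 2-fold higher in spleen (6.98%, against 0.698% of all genes): HLA-B, HLA-C, HLA-DRB1, LCK, CCL2 and CXCL12. LCK and CCL2 did not pass the filter. LCK, the kinase that starts T cell receptor signalling, had 778 in spleen, against 23.2 to 104 in the other tissues and 111, 141 and 119 on the embryo arrays. The embryo arrays were above all tissues but spleen. CCL2, which attracts monocytes, had 305 in spleen, against 0.44 to 5.82 in the other tissues and 0.63, 0.4 and 0.58 on the embryo arrays.

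CD38 and CD163 were bright in spleen without standing alone there. CD38, an NAD-consuming enzyme of plasma cells, had 231 in spleen, against 79.8 in lung, 39.8 in brain and 2.04 to 4.95 in the other tissues. CD163, the haemoglobin scavenger receptor of macrophages, had 291 in lung and 191 in spleen, against 103 in liver and 8.37 to 44.6 in the other tissues. CCL8, another monocyte attractant, had 312 in lung, against 145 in heart, 85.6 to 118 in liver, kidney, muscle and brain, and 69.0 in spleen, its lowest tissue.

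In liver, 6 members (6.98%, against 5.12% of all genes) were at least 2-fold above every other array type: CD46, CD1A, IL17RB, CD37, CD244 and IL15RA. None of the 6 passed the filter, since each exceeded the median in liver alone. CD46, which shields cells from complement, had 891 in liver, against 4.19 to 19.4 in the other tissues and 9.34, 4.17 and 6.35 on the embryo arrays. IL17RB, a receptor of IL25, had 381 in liver, against 2.21 to 19.3 in the other tissues and 4.91 to 6.87 on the embryo arrays. IL15RA, which presents IL15 to neighbouring cells, had 298 in liver, against 0.84 to 28.6 in the other tissues and 1.70 to 2.91 on the embryo arrays. CD37, a tetraspanin of B cells, had 326 and CD244, a receptor of natural killer cells, 302 in liver, with at most 70.5 and 26.5 in the other tissues.

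In brain, 2 members (2.33%, against 3.76%) stood at least 2-fold above every other array type. CCL18, a chemokine known from human, had 979.6 in brain, against 206 to 453 in the other tissues and 279, 154 and 155 on the embryo arrays. IL13RA1, a receptor of IL13 and IL4, had 168 in brain, against 16.4 to 41.5 in the other tissues and 32.0 to 43.8 on the embryo arrays. No member was so restricted to lung (against 1.28% of all genes), kidney (0.624%), heart (1.83%) or muscle (1.56%), and IL12RB1 alone was so restricted to embryos (1.16%, against 1.08%).

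Several leukocyte markers did not favour spleen. CD4, the helper T cell coreceptor, had 1521 in heart, against 665 in spleen and 507 to 899 in the other tissues and 651, 743 and 794 on the embryo arrays. CD22 and CD40 of B cells had 198 to 247 and 195 to 215 on the embryo arrays, against 183 to 276 and 158 to 240.1 in tissues, with no separation. CXCR4, the receptor of CXCL12, had 44.4, 52.7 and 47.2 on the embryo arrays, against 182 in heart, 161 in liver, 132 in spleen, 128 in lung and 24.1 to 43.3 in the other tissues. CD44, a hyaluronan receptor, was flat on its brightest probe set, with 166, 177 and 144 on the embryo arrays, against 114 to 252 in tissues. On 3 of its other probe sets it was brightest in lung (480.3 to 709.8) and next in spleen (136 to 299), with at most 18.4 on the embryo arrays.

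The remaining chemokine receptors spread over several tissues. CCR2, the receptor of CCL2, had 517, 356 and 537 on the embryo arrays, against 1026 in brain, 851 in muscle, 670.3 in kidney and 282 to 587 in the other tissues. CXCR1, an IL8 receptor of neutrophils, had 465, 560.1 and 478 on the embryo arrays, against 684 in kidney and 205 to 426 in the other tissues. CXCR3, a receptor of effector T cells, had 72.4, 147 and 67.3 on the embryo arrays, against 98.0 to 237 in tissues. In all 3 genes the groups overlapped.

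IL10RB, a subunit of the IL10 receptor, had 75.04, 41.4 and 58.6 on the embryo arrays, against 366 in liver, 231 in lung, 145 in kidney and 18.1 to 66.0 in the other tissues. IL2RA, the alpha chain of the IL2 receptor, had 97.5, 88.2 and 89.5 on the embryo arrays, against 208 in kidney, 168 in muscle and 13.0 to 69.8 in the other tissues. CD6, a T cell receptor for CD166, had 97.9, 102 and 109 on the embryo arrays, against 299 in muscle, 297 in heart and 14.6 to 101 in the other tissues. CD6 was thus brightest outside spleen, and its other probe sets had 9.46 and 18.4 in spleen.

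CD83, a marker of mature dendritic cells, had 267, 288 and 370.3 on the embryo arrays, against 706 in muscle, 401 in kidney, 379 in spleen and 217 to 320 in the other tissues. CD81, a tetraspanin of many cells, had 313, 336 and 205 on the embryo arrays, against 753 in liver, 614 in lung, 470.4 in spleen and 246 to 317 in the other tissues. CD248, a stromal surface protein, had 309, 398 and 881 on the embryo arrays, against 228 to 423 in tissues, so its embryo mean rested on the third array. CCL23, a chemokine of monocytes, had 16.1, 84.9 and 199.7 on the embryo arrays, against 6.53 to 76.7 in tissues. CD84, an adhesion receptor of leukocytes, had 108, 172 and 238 on the embryo arrays, against 66.3 to 184 in tissues, and CD300C, a myeloid receptor, had 112, 171 and 113 on the embryo arrays, against 88.8 to 243 in tissues. The 18 further members that were not described singly, such as IL2RG, IL1R1 and CD86, had differences, embryos minus tissues, of -0.36 to 0.48 (log2), and in all 18 the groups overlapped.

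The third embryo array and muscle were the 2 brightest arrays for CCL16, CD34, CD300A, CD80 and CXCL9, 5 of 86 members (5.81%, against 6.97% of all genes). CCL16, a chemokine, had 72.4, 88.4 and 377 on the embryo arrays, against 425 in muscle and 13.0 to 95.2 in the other tissues. CD34, a marker of blood stem cells and endothelium, had 67.5, 68.7 and 198 on the embryo arrays, against 183 in muscle and 51.1 to 76.1 in the other tissues. For both, the first and second embryo arrays were alike and the third stood with muscle.

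Genes of related function outside the membership were counted for the same arrays. Of 27 listed genes of antigen processing, 15 had a value, with a median difference of -0.11, and 11 were tested. Against all tissues 0 were called by limma (2 higher and 0 lower at an unadjusted p under 0.05). At that level 17.4% of all probe sets tested were higher and 10.2% lower. The 2 higher were TAP2 and CTSL. TAP2 had 148, 185 and 192 on the embryo arrays, against 40.4 to 146 in tissues, so all embryo arrays were above every tissue. CTSL had 321, 262 and 249 on the embryo arrays, against 44.0 to 318 in tissues. The immunoproteasome subunit PSMB9 had 102, 84.9 and 76.6 on the embryo arrays, against 386 in spleen, 293 in lung and 15.0 to 114 in the other tissues. CIITA, the master regulator of class II transcription, had 252, 181 and 167 on the embryo arrays, against 79.4 to 217 in tissues.

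Of 20 listed macrophage and myeloid genes, 14 had a value and 6 were tested. Against all tissues 0 were called by limma (0 higher and 1 lower at an unadjusted p under 0.05). From spleen and from lung, MRC1 differed by -2.70 and -2.29, MARCO by -1.52 and -3.21 and CSF1R by 0.32 and 0.81. CYBB, LCP1 and FGR differed from these tissues by -0.59 to -0.12. MARCO passed the filter through tissue arrays only. The summed intensity of the 14 genes was 1162 to 1439 on the embryo arrays, against 4931 in spleen, 4675 in lung and 1216 to 3092 in the other tissues. Single probe sets weighed heavily in this sum: FGR alone had 1768 of the 3092 in muscle, and MARCO 1623 of the 4675 in lung. Since probes match unequally, the sum is no level of a cell type. Of the list, 13 genes exceeded the array median in a tissue. Spleen was the brightest tissue for 5 of them and lung for 2, against 13.7% and 10.8% of all such genes. AIF1 and LYZ, which are defining genes of macrophages, had 4.995 to 6.21 and 1.30 to 3.79 on the embryo arrays, against 1015 and 754 in spleen and 613 and 246 in lung. Other genes of the list did not share that order: CSF1R, the receptor of a macrophage growth factor, had 106 to 156 on the embryo arrays, against 83.1 in spleen, 38.5 in lung and 111 to 179 in the other tissues, and NCF4, an oxidase subunit, had 97.1 to 209 on the embryo arrays, against 28.2 to 86.4 in tissues. The part of these cells in the class I and class II results was not tested. In whole tissue, fewer cells of a type and less RNA per cell cannot be told apart.

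Of 14 listed T cell signalling genes, 7 had a value, of which 5 were brightest in spleen, against 13.7% of all genes. Of these 7, 4 were tested and 0 were called against all tissues by limma (1 higher and 2 lower at an unadjusted p under 0.05). From spleen and from lung, FYN differed by -1.91 and -1.23, TRBC1 by -1.27 and -1.06, BCL11B by -1.03 and 0.32 and GATA3 by 0.63 and 0.78. For FYN and TRBC1, all 3 embryo arrays were below all 7 tissues, but FYN passed the filter through tissue arrays only. Of 14 listed genes of B cell identity, 7 had a value, of which 0 were brightest in spleen. Of these, 4 were tested and 0 were called against all tissues by limma (0 in either direction at an unadjusted p under 0.05). Natural killer genes (8 of 13 with a value, 4 tested), endothelial genes (4 of 13, 1 tested) and granulosa and cumulus genes (6 of 12, 3 tested) gave 0 calls too. For these the limma test was also that against all tissues, with 1 granulosa gene higher at an unadjusted p under 0.05. At that level 17.4% of all probe sets tested were higher and 10.2% lower. Of 13 erythroid genes, 4 had a value, and HBB, the beta globin, was called higher in embryos (1.68 ± 0.31, limma adjusted p = 0.00524). Of all probe sets tested, 8.87% were called higher. The other erythroid genes with a value, HBE1, ALAS2 and SLC4A1, differed by -0.24, -0.25 and 0.10 and were not called.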

How the data were processed

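For every array the authors deposited a linear intensity of each probe set. The sources used here name neither its software nor its scaling. Of 22283 probe sets, 12064 were blank on every array. After 33 manufacturer controls were left out, 10186 were analysed, of which 8847 had 1 symbol, 479 several and 860 none in the platform annotation. Because 2% trimmed means differed 1.9-fold, above the limit of 1.5, arrays were quantile normalised and 72.2 was added before log2. Probe sets were fitted with limma 3.58.1 (trend and robust) in R 4.3.3, once as embryos against all tissues and once with 8 groups for spleen and lung, and the pipeline was tested on simulated data. Array number limits the precision.

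Members, classes and lists were chosen with earlier results of these data known. Named genes were B2M, LCK, HLA-DRA, CXCR4 and blank lineage genes, called members, up to 6 of each class with the widest range over the arrays, and members restricted to 1 array type. Others named were chosen after their values were seen, to complete a class or a count. Lists of other genes are described by counts, with values for a few genes.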

Additional observations from a re-analysis of the deposited data

How the results depend on the processing

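No paired analysis was possible because each tissue has a single array and tissues and embryos share fewer than 2 replicate numbers. The median difference of the 86 members, embryos minus tissues (-0.138), reversed to 0.033 with values as deposited, where that of all genes also moved upward. It was -0.169 with a common median, -0.091 with an offset of 289, -0.24 with the widest-spread probe set, -0.159 over the members that passed the filter, -0.102 without the third embryo array and muscle, and -0.098 without spleen and lung (the last 3 chosen after seeing the data), and -0.155 to -0.091 with single arrays left out. Members called higher in embryos than in tissues numbered 2, against 1 with the embryo arrays averaged and 2 to 3 with single arrays left out. Members called lower numbered 0, against 1 (HLA-DRB1) with an offset of 18, 2 (B2M and CXCR5) without trend and robust fitting, and 0 to 4 with single arrays left out, where 4 came without brain. Against spleen, single arrays left out gave 8 to 16 lower (13 in full) and 1 to 3 higher. Against lung they gave 7 to 19 lower (15 in full) and 1 to 5 higher, and values as deposited gave 8 lower. The low ends came without the second embryo array. Members 2-fold higher in spleen numbered 14, against 9 with an offset of 289 and 14 to 16 with single arrays left out, and those brightest in spleen 24 to 26. The causes were not tested. No detection calls were used, so the background level of a probe set is not known here.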

Other observations

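6 probe sets matched the families but carried several symbols and were left out of the members. The probe set of HLA-DQA2 and HLA-DQA1, alpha chains of DQ, had 13.6, 25.1 and 13.2 on the embryo arrays, against 514 in spleen, 209.9 in lung and 8.95 to 58.0 in the other tissues. A probe set of HLA-DRB5, HLA-DRB4, HLA-DRB1 and HLA-DQB1 had 27.7, 29.3 and 19.0 on the embryo arrays, against 1241 in spleen, 590.4 in lung and 91.5 to 291 in the other tissues. All 3 embryo arrays were below all tissues, and it was called lower in embryos (-1.86 ± 0.55, limma adjusted p = 0.0458). This probe set passed the filter through tissue arrays only, so its direction was tied to its passing. A probe set of HLA-DRB4, HLA-DRB3, HLA-DRB1 and HLA-DQB1 had 33.0, 18.1 and 29.3 on the embryo arrays, against 862 in spleen, 300.1 in lung and 18.9 to 189 in the other tissues. The CCL14 probe set, a chemokine made by liver in human, had 43.3 to 62.1 on the embryo arrays, against 617 in liver and at most 101 in the other tissues.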
